A study of Mus musculus with 8 samples.

Results

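Natural killer (NK) cells made up 855 of the 32121 cell barcodes that passed quality filters in 4 droplet libraries of CD45+CD11b+Ly6Chi cells from tumor-bearing mice. The NK cells were chosen by measured values, the UMI counts of marker genes. A barcode was taken when it held at least 4 unique molecular identifiers (UMIs, each standing for 1 captured transcript) summed over 6 genes, Ncr1, Klrb1c, Klre1, Klra8, Nkg7 and Prf1, at most 1 UMI of the Cd3 genes and at most 2 of the C1q genes. The levels of these genes chose the cells and are no result. Of the 855 cells, 303 came from blood and 199 from tumor of untreated mice, and 165 from blood and 188 from tumor of mice whose tumor had been irradiated.

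The mice carried subcutaneous MC38 tumors, a mouse colon adenocarcinoma line, and received a single tumor-localized dose of 20 Gy (IR) or no irradiation (control), with cells collected 3 days later. Mice were 8 to 10 weeks old, and each library pooled cells of 5 WT and 5 Ythdf2-cKO mice. Both genotypes carry floxed Ythdf2, and the cKO also carries Lyz Cre, which is active in myeloid cells. Cells of the 2 genotypes were mixed before loading and told apart by hashtag antibodies against CD45 and MHC class I, B0301 for WT and B0302 for Ythdf2-cKO. The libraries held 51731085 (blood control), 51653956 (blood IR), 87703837 (tumor control) and 81601307 (tumor IR) gene UMIs. With 1 library per tissue and treatment there was no replicate, so no test was made, and every 95% interval here covers counting error only.

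NK cells are innate lymphocytes that kill infected or transformed cells by releasing granules of perforin and granzymes, and they secrete interferon-gamma and chemokines. Activating receptors such as NKG2D (Klrk1) and NKp46 (Ncr1) and inhibitory receptors such as many Ly49 molecules (Klra genes) set their threshold. In mice, maturing blood NK cells gain CD11b, KLRG1 and the egress receptor S1pr5, and tissue-adapted NK cells lose part of that set. The sort was for cells stained for CD11b and Ly6C, a gate that leaves out CD11b-low NK cells, and its purity was not tested here. The CD11b gene Itgam had a UMI in 67.3% (blood control), 72.7% (blood IR), 29.6% (tumor control) and 26.1% (tumor IR) of NK cells. What follows describes only the NK cells found among the sorted cells.

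Summed over the chosen cells of a library, genes outside the rule included NK cell genes far above their level in the other barcodes. Gzma, which encodes the serine protease granzyme A and was not used to choose the cells, stood at 13294, 14751, 9700.5 and 16043 CPM (UMIs per 1000000 UMIs of the NK cells) in blood control, blood IR, tumor control and tumor IR, in that order here and below. It had a UMI in 99.3%, 99.4%, 93.97% and 98.9% of the NK cells, and its level in the other barcodes was at most 26.4 CPM. Eomes, the transcription factor that separates NK cells from most type 1 innate lymphoid cells (ILC1), stood at 301.3, 237, 232 and 210.3 CPM against at most 1.05 CPM in the other barcodes. The type 3 innate lymphoid cell markers Il23r and Il22 were at 0 in all 4 libraries. T cell markers were not absent. The 12 on the list, the Cd3 genes among them, summed to 470, 390, 773 and 823 CPM. In the other barcodes they summed to 58.0, 21.8, 88.8 and 40.2 CPM. Whether some of the chosen barcodes were T cells with little Cd3 RNA was not tested.

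At the edge of the rule the level of genes it did not use dropped, while many barcodes just outside still held some. The sum of 10 other NK genes reached 12726 CPM in the 23 barcodes with 4 to 6 UMIs of the rule genes, 24831 CPM in 108 barcodes with 7 to 14, and 32974 CPM in 724 barcodes with 15 or more. Just outside, 33 barcodes with 2 or 3 UMIs had 1635 CPM of the same genes. Of those 33, 75.8% held a UMI of the 10 genes, against 95.7% of the 23. By library 8, 2, 6 and 17 barcodes held 2 or 3 UMIs, and 6, 1, 3 and 5 NK barcodes held 4 or 5. The limit on Cd3 removed 21, 8, 71 and 29 barcodes that held enough NK gene UMIs, and the limit on C1q removed 0, 0, 9 and 7.

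Some NK barcodes also held RNA of other cells. More than 1 UMI over 6 myeloid genes (Csf1r, Adgre1, Cd14, Csf3r, Cxcr2 and Retnlg) was found in 44, 16, 8 and 19 of them. Dropping those, barcodes with 50 or more UMIs of S100a8 and S100a9, barcodes with more than 1 UMI of fibroblast or carcinoma genes, and hashtag doublets left 252, 147, 178 and 162 cells, called the set without mixed droplets below. With all NK cells the 8 neutrophil markers summed to 15251, 10202, 1.05 and 19.3 CPM and the 10 monocyte and macrophage markers to 779, 1719.5, 631 and 2510.4 CPM. The filter used 5 of the former and 3 of the latter, so only the markers it did not use are compared. The 3 unused neutrophil markers (Ly6g, Mmp9 and Camp) went from 151, 247, 1.05 and 0 CPM with all NK cells to 20.1, 3.78, 0 and 0 CPM without mixed droplets, at most 2.43% of their level in the other barcodes. The 7 unused monocyte and macrophage markers, Lyz2 and Apoe among them, went from 630.3, 1619, 497 and 1738 CPM to 91.0, 66.2, 115 and 126 CPM, at most 1.48%.

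The 2 tumor matrices shared cell barcodes. Of the 199 NK barcodes of the control tumor, 193 also held at least 500 UMIs in the matrix of the irradiated tumor, and 183 of the 188 NK barcodes of the irradiated tumor did so in the matrix of the control tumor. The median cell held 2.19 times (control) and 1.69 times (IR) as many UMIs in its own matrix as in the other. Only 3 barcodes were NK cells in both, and no more than 2 NK barcodes of any library passed in a matrix that was not the other tumor matrix. To be an NK cell in a matrix, a barcode also needed at least 20 hashtag UMIs there. The small overlap depends on that filter and does not show which tumor a cell came from. The shared barcodes touch every comparison of IR with control in tumor. With the UMIs of each tumor NK cell summed over both matrices, the genes past the 2-fold limit explained below numbered 1076 in place of 896, and the median interferon response ratio was 2.35 in place of 2.48. Such sums keep each cell in its assigned group, so they do not check that assignment.

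Ythdf2, the targeted gene, was not lower under the Ythdf2-cKO label. It was higher in NK cells labelled Ythdf2-cKO than in those labelled WT, by 1.80 on the log2 scale in blood control (95% interval 1.09 to 2.62) and 1.28 in tumor IR (0.29 to 2.54). The difference was 0.92 in blood IR (-0.10 to 1.99) and 0.28 in tumor control (-0.95 to 1.45), intervals that include 0. In the other barcodes these differences were 3.32, 3.40, 2.99 and 2.72. The library reads 3′ ends, which can lie outside a deleted stretch, so the level checks nothing about the deletion. Genotypes are therefore given as the libraries label them. Lyz2, the gene into which Lyz Cre is set, was lower in NK barcodes labelled Ythdf2-cKO in every library (568 against 73.2 CPM, 1653 against 58.0, 486 against 22.3 and 892 against 19.9). The other barcodes held 14641 against 85.8 CPM, 13696 against 84.9, 7010 against 52.5 and 5675 against 62.1. Lyz2 is also 1 of the monocyte and macrophage markers above. Summed with Ythdf2 and Lyz1 it went from 575, 1602, 353 and 470 CPM in all NK cells to 128, 110, 77.8 and 85.3 without mixed droplets. The part that RNA of other cells had in the Lyz2 values of NK barcodes was not tested.

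NK cells were a small share of the sorted cells in every library, and the share was lower after IR in both tissues. In blood they formed 3.15% of passing barcodes without IR (95% Clopper-Pearson interval 2.81 to 3.52) and 1.79% with it (1.53 to 2.08). In tumor the share was 3.67% without IR (3.19 to 4.21) and 2.40% with it (2.07 to 2.76). IR minus control came to -1.36 percentage points in blood (95% Newcombe interval -1.81 to -0.92) and -1.28 in tumor (-1.90 to -0.68). The lower share after IR held for cells labelled WT, from 4.41% to 2.38% in blood and from 4.78% to 1.81% in tumor. For cells labelled Ythdf2-cKO the shares were 1.52% and 1.13% in blood and 2.60% and 2.22% in tumor, with IR minus control at -0.39 (-0.91 to 0.12) and -0.38 (-1.29 to 0.47) percentage points, intervals that include 0. A share depends on all other cells that passed the sort, and 57 of the 188 NK cells in tumor IR carried no assigned hashtag, against 0, 0 and 14 in the other libraries.

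**Figure D1:**
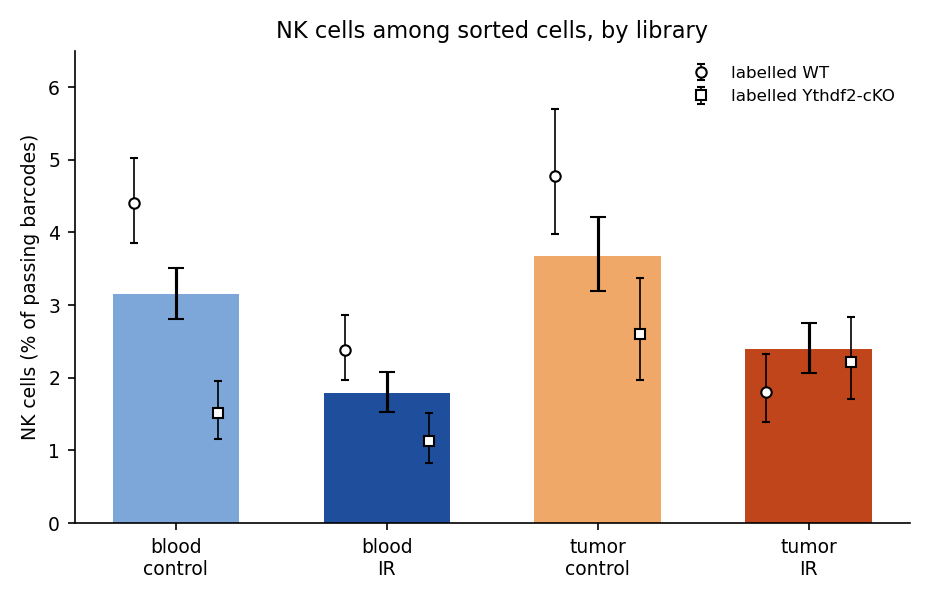
Bars give NK cells as a percentage of passing barcodes in each library, with 95% Clopper-Pearson intervals. Circles and squares give the same share among barcodes labelled WT and labelled Ythdf2-cKO. The share was 3.15% and 1.79% in blood and 3.67% and 2.40% in tumor, and in tumor IR the labels lay at 1.81% and 2.22%.

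Tumor minus blood was 0.52 percentage points in control (-0.07 to 1.15), an interval that includes 0, and 0.61 in IR (0.18 to 1.05). The IR value did not keep its direction: it was -0.57 among cells labelled WT (-1.20 to 0.08), 1.09 among cells labelled Ythdf2-cKO and 0.18 without hashtag doublets and negatives (-0.27 to 0.64). NK cells were shallower than their neighbours in tumor. The median NK cell held 3324, 3518, 2679 and 2408.5 UMIs against 3025, 2905, 7352 and 6215.5 in the other barcodes. After every barcode was thinned to 1000 UMIs the shares were 2.95%, 1.68%, 3.15% and 2.17%.

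The comparison of tumor with blood asked how NK cells inside MC38 tumors differed from those in blood of mice given the same treatment. Whether both tissues came from the same animals is not stated. Genes with at least 20 UMIs over the 2 libraries were measured, and a gene was called higher or lower when its ratio of CPM passed 2-fold (1 on the log2 scale, with 1 pseudo-UMI added to each side). Of 8022 genes measured in control mice, 646 were higher and 1581 lower in tumor, 8.05% and 19.7%. Of 6743 in irradiated mice, 474 were higher and 957 lower, 7.03% and 14.2%. The median gene lay at -0.33 and -0.28, and with TMM scaling, which brings it to -0.02 and -0.01, the split became 1021 higher and 978 lower in control and 684 and 550 in IR, so the excess of lower genes depended on the scaling. In these sums fewer cells expressing a gene and less RNA per cell cannot be told apart. Deep cells also weigh more in them: the deepest NK barcode of tumor control held 63089 of the 953873 UMIs summed there.

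Granzyme B rose in tumor NK cells and granzyme A did not. Gzmb, which encodes the granule protease that cleaves caspases in the target cell, stood at 1059.5, 1369.9, 3049.7 and 7208 CPM. Its log2 ratio of tumor over blood was 1.52 in control (95% interval 1.43 to 1.62) and 2.39 in IR (2.30 to 2.50), and 1.66 and 2.42 without mixed droplets. For Gzma the ratios were -0.45 and 0.12, inside the 2-fold limit. In NK cells thinned to 1000 UMIs the median cell held 1, 1, 3 and 6 UMIs of Gzmb, and 14.5%, 20.2%, 50.5% and 74.7% of cells held 3 or more.

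A second set of granzymes was found in tumor only. Gzmc, Gzmd, Gzme, Gzmf and Gzmg lie with Gzmb in 1 cluster on chromosome 14 (Gzmb at 56258838 to 56262260, Gzmc at 56231441 to 56234656 and Gzmd at 56129556 to 56132608, all mm10) and are close copies of each other, so reads may be split between them. Gzmc had 0, 0, 5566 and 808 UMIs, or 5835 and 1297 CPM in the tumor libraries, at least 2311-fold (control) and at least 319-fold (IR) above the limit of 3 UMIs per library that a count of 0 allows in blood. Few cells carried it, 18.6% of NK cells in tumor control and 12.8% in tumor IR. One cell held 94% of the Gzmf UMIs, 82% of the Gzmg UMIs and 49% of the Gzmd UMIs in tumor control, so those 3 genes rest on single cells there, whereas 1 cell held 13.7% of the Gzmc UMIs.

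Cells with the Gzmc to Gzmg cluster formed a minority that was deep in RNA. At least 5 UMIs over the 5 genes were seen in 24 of 199 NK cells of tumor control (12.1%, 95% interval 7.88 to 17.4) and in 11 of 188 of tumor IR (5.85%, 2.96 to 10.2). None of 303 and 165 blood NK cells had even 1 UMI, and by the limit of 3 counts this allows shares of cells with a UMI of up to 0.9901% and 1.82%. The carriers had a median of 11211 and 6281 UMIs against 2679 and 2408.5 over all tumor NK cells. Without mixed droplets, 21 of 178 and 10 of 162 cells carried at least 5. Gzma varied among the carriers, and many of those in tumor control had none of it after thinning. There the carriers with 2029, 867 and 762 UMIs of the cluster held 0 thinned UMIs of Gzma. Those with 86 and 54 held 24 and 12. In tumor IR the carriers with 215 and 136 held 0 and 30. Whether the carriers without Gzma were NK cells was not tested beyond the rule.

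Over the whole cytotoxic list, granzymes included, 17 genes were measured in control and 13 in IR, with 6 higher and 1 lower in each, at medians of 0.44 and 0.42 (the median of all genes was -0.33 and -0.28). In control 5 of the 6 higher genes were granzymes and the other was Serpinb9, and in IR they were Gzmb, Gzmc, Srgn, Ctsc, Serpinb6b and Serpinb9. Serpinb9, the inhibitor that shields the killer cell from its own granzyme B, stood at 326, 324, 713 and 1030.5 CPM and rose in both (1.13 and 1.67). Serpinb6b, a related serpin, had 0.92 and 1.27. The 1 lower gene was Rab27a, a GTPase of granule release, at 77.4, 56.9, 15.7 and 12.8 CPM (-2.23 and -2.03). Fasl, the death ligand, stood at 201, 179, 171 and 239 CPM, inside the limit in both comparisons. In the other barcodes the cytotoxic list had medians of 2.035 and 2.10, with 11 and 9 genes higher and 2 and 1 lower.

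**Figure D2:**
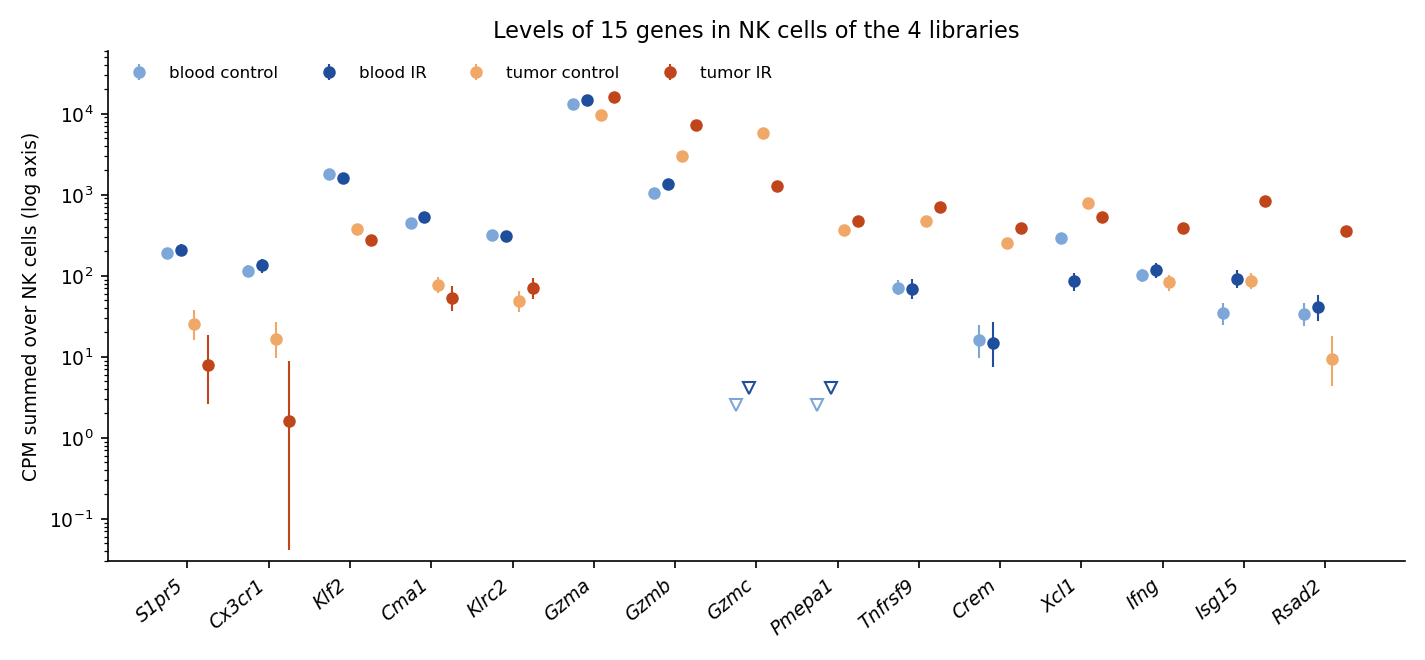
Each point is the level of 1 gene summed over the NK cells of 1 library, in CPM on a log axis, with its exact 95% Poisson interval. Open triangles mark the limit of 3 UMIs for a library with none. S1pr5, Cx3cr1, Klf2, Cma1 and Klrc2 lay lower in both tumor libraries than in both blood libraries, Gzmb, Tnfrsf9 and Crem lay higher, and Gzmc and Pmepa1 had no UMI in blood.

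Genes of the mature, circulating NK state fell. Of 12 measured genes of the CD11b-high maturation list, 10 were lower and 1 higher in control (median -1.80), and 8 were lower and 1 higher in IR (median -1.77). The higher gene was Gzmb in both. S1pr5, the receptor by which NK cells leave tissue along sphingosine 1-phosphate, stood at 194, 209, 25.2 and 8.03 CPM (log2 ratios -2.90 and -4.47), with 24 and 5 UMIs in the tumor libraries. Its UMIs were in 50.8% and 55.2% of blood NK cells and in 10.1% and 2.66% of tumor NK cells. Cma1, a chymase-type protease of mature NK cells, stood at 451.1, 533, 77.6 and 52.97 CPM (-2.53 and -3.29). Klrg1, an inhibitory lectin receptor gained late in maturation, stood at 206, 248, 84.9 and 56.2 CPM (-1.27 and -2.11). Each of these genes stood lower in both tumor libraries than in both blood libraries. How many of all genes did so was not counted, and 19.7% and 14.2% of all genes were called lower in tumor.

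The gene for the sorted marker CD11b was part of that list. Itgam stood at 352, 386, 92.3 and 242 CPM, and its ratios were -1.92 in control and -0.67 in IR, or -1.68 and -2.15 without mixed droplets. Leaving out mixed droplets thus moved the IR value past the limit. Zeb2, the transcription factor of terminal NK maturation, stood at 705, 715, 99.6 and 219.9 CPM, with -2.81 and -1.70 over all NK cells and -2.93 and -3.12 without mixed droplets. Without mixed droplets 10 of the 12 list genes were lower in both comparisons, at medians of -1.55 and -2.13.

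Homing genes were lower too. Of 8 circulation and homing genes, 5 were lower and 0 higher in control (median -1.81) and 6 lower and 1 higher in IR (-1.64). Klf2, the factor that keeps lymphocytes in circulation by driving S1pr1, stood at 1800.0, 1598, 379.5 and 278 CPM (-2.24 and -2.52). Cx3cr1, the fractalkine receptor, fell from 136 and 99 UMIs in blood to 16 and 1 in tumor (-2.70 and -5.46, with an interval of -11.70 to -3.87 for the latter). Itga4, an integrin chain, stood at 757, 739.8, 209.7 and 233 CPM (-1.85 and -1.66). The 1 higher gene in IR was Cxcr4, at 1.59. In the other barcodes the 8 genes had medians of -2.11 and -2.41 for the same ratio.

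The receptors of NK cells fell in part. Of 23 measured NK receptor and signaling genes outside the rule, 0 were higher and 10 lower in control (median -0.92), and of 22 in IR 1 was higher and 6 lower (-0.63). Klrc2, which encodes NKG2C, stood at 321, 312, 48.2 and 70.6 CPM (-2.71 and -2.12). Cd244a, which encodes 2B4, stood at 207, 198, 64.0 and 70.6 CPM (-1.68 and -1.47), and Il18r1, a chain of the interleukin-18 receptor, at 238, 191, 77.6 and 88.3 CPM (-1.61 and -1.10). Klrk1 stood at 842, 852, 391 and 488 CPM, lower by 1.11 on the log2 scale in control and with a ratio of -0.80 in IR. Klrd1, the CD94 partner of NKG2 receptors, had -0.81 and -0.54, and Il2rb, the shared chain for interleukin-2 and interleukin-15, had 0.32 and 0.77 at 891, 804, 1113 and 1376 CPM. The 1 higher gene in IR was Fcgr3, an Fc receptor that macrophages also express, and without mixed droplets it was not past the limit.

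Ly49 receptors, which read MHC class I on other cells, showed smaller ratios of the same sign. Of 8 measured in control 3 were lower (median -0.88), and of 6 in IR 1 was lower (-0.53). Over all genes 19.7% and 14.2% were lower, at medians of -0.33 and -0.28, so the IR count was near the share of all genes. Klra9 stood at 770.0, 817, 288 and 347 CPM (-1.41 and -1.23), and Klra4 at 781, 587, 303 and 395 CPM (-1.36 and -0.57). These genes are near copies of each other, and the split of reads among them is uncertain.

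The lineage-defining transcription factors stayed inside the limit while others passed it. Eomes had -0.38 and -0.17 and Tbx21, which encodes T-bet, -0.69 and 0.01 at 151, 137, 93.3 and 138 CPM, all inside the 2-fold limit. Of 15 factors measured in control 1 was higher and 4 lower (median -0.67), and of 13 in IR 4 were higher and 3 lower (0.01). Prdm1, which encodes Blimp-1, fell from 85.8 to 21.0 CPM (-1.99) and from 73.2 to 19.3 (-1.85). Ikzf3, which encodes Aiolos, fell from 177 to 54.5 CPM (-1.68) and from 178 to 49.8 (-1.80), and Ikzf2, which encodes Helios, rose from 10.9 to 55.6 (2.25) and from 14.9 to 33.7 (1.10). Ikzf1, the third factor of that zinc-finger family and named here for its size of change, fell from 319 to 61.9 CPM (-2.35) and from 317 to 70.6 (-2.14). Irf8 stood at 1036, 932, 1575 and 1971 CPM (0.60 and 1.08).

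Activation receptors were higher in tumor, in NK cells and in the other barcodes. In the other barcodes the checkpoint and activation list had medians of 3.17 (control) and 3.07 (IR), with 10 of 14 and 8 of 11 genes higher and 0 lower. In NK cells 8 of 14 measured in control were higher and 1 lower (median 1.41), and of 11 in IR 8 were higher and 0 lower (1.70). Tnfrsf9, which encodes the costimulatory receptor 4-1BB, stood at 71.5, 69.1, 474 and 699.8 CPM (2.71, 95% interval 2.39 to 3.08, and 3.31, 2.92 to 3.79), and it had a UMI in 15.5%, 17.6%, 62.3% and 68.6% of NK cells. Tnfrsf18, which encodes GITR, stood at 82.5, 94.9, 213 and 244 CPM (1.36 and 1.35), and Icos at 6.73, 1.35, 52.4 and 65.8 CPM (2.80 and 4.57). Cish, the SOCS-family brake on interleukin-15 signaling, stood at 10.9, 8.13, 107 and 167 CPM (3.18 and 4.13), and the other barcodes also had more of it in tumor, 93.0 and 129.7 CPM against 2.75 and 3.40 in blood. Inhibitory checkpoint genes had few UMIs, and 3 of them passed the limit. Pdcd1 had 0, 0, 41 and 0 UMIs, with 56% of the 41 in 1 cell, and was higher in tumor control. Ctla4 had 0, 0, 27 and 9 UMIs, in 6.53% and 3.19% of tumor NK cells, and was at least 11.2-fold higher in tumor control than the limit in blood. Havcr2, which encodes TIM-3, had 1, 1, 10 and 23 UMIs and was higher in tumor IR than in blood IR (3.76, or 2.10 without mixed droplets) and than in tumor control (1.70, or 0.13 without mixed droplets). Its level in the other tumor barcodes was 87.6 and 129 CPM against 10.5 and 36.9 in NK cells. Lag3 had 0, 1, 7 and 5 UMIs and Tigit 1, 0, 7 and 1.

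**Figure D3:**
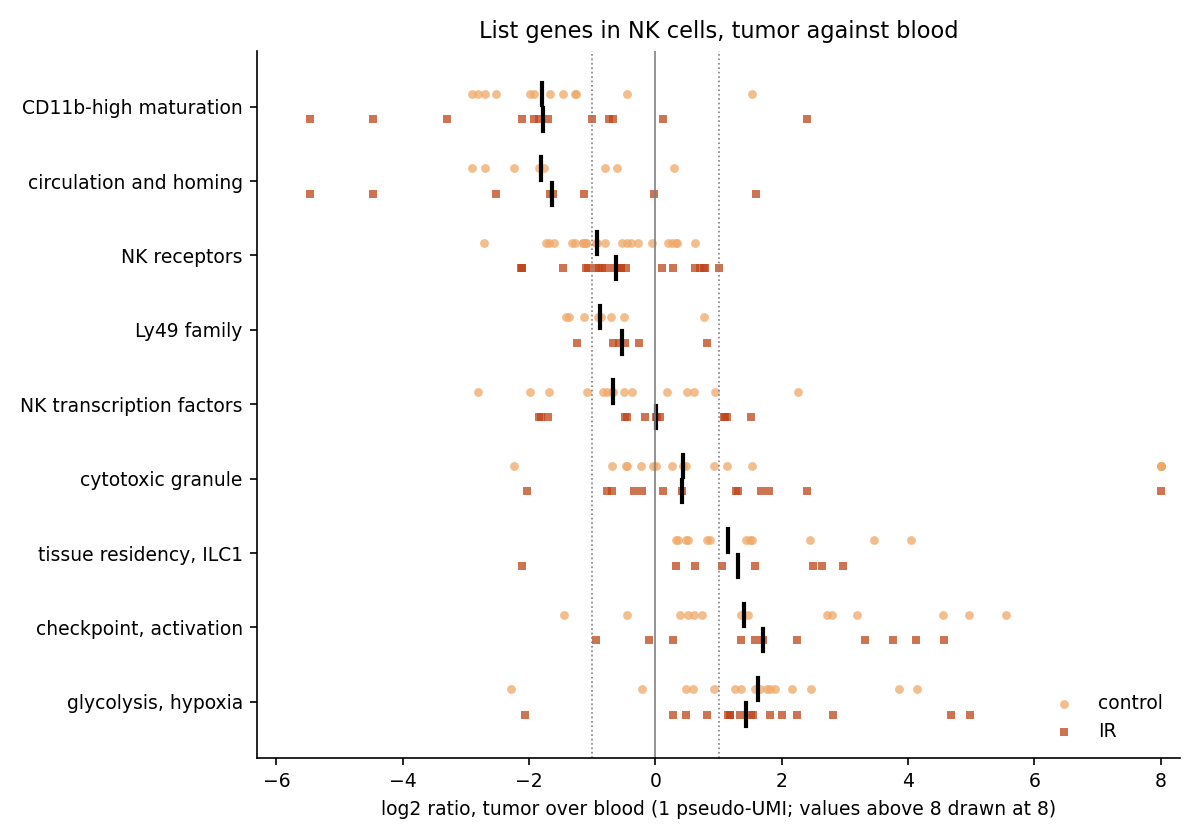
Each point is 1 measured gene of the list named at the left, placed by its log2 ratio of tumor over blood in NK cells of control mice (circles) or irradiated mice (squares), and black bars mark list medians. Dotted lines mark 2-fold. Medians of the maturation list lay at -1.80 and -1.77 and those of the checkpoint and activation list at 1.41 and 1.70.

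More residency and ILC1 genes were higher than lower in tumor. Of 12 measured in control 6 were higher and 0 lower (median 1.15), and of 8 in IR 5 were higher and 1 lower (1.31). Rgs1, a regulator of chemokine receptor signaling kept high in resident lymphocytes, stood at 205, 119, 594 and 679 CPM (1.53 and 2.49). Xcl1, the chemokine that calls XCR1+ dendritic cells, stood at 292, 85.4, 794 and 538 CPM (1.44 and 2.63). One cell held 59% of its UMIs in blood control, and without that cell blood control stood at 119 CPM and the control ratio was 2.73. Itga1, the CD49a chain used to mark ILC1, had 11, 3, 52 and 15 UMIs, in 15.1% and 7.45% of tumor NK cells. Itgae had at most 5 UMIs in any library, and Cxcr6 had 0, 0, 12 and 1. Thy1, from the list of CD27-high immature genes, stood at 29.5, 36.6, 181 and 124 CPM (2.58 and 1.72), whereas Cd27 itself stood at 24.4, 25.7, 33.5 and 36.9 CPM, inside the limit. In the other barcodes the residency and ILC1 genes had medians of 0.66 and 3.16, with 4 and 5 higher and 3 and 2 lower.

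Pmepa1, Crem, Ctla2a and Bcl2l11 were among the genes with the largest higher levels in tumor, and the other tumor barcodes shared this for Pmepa1 and Crem. Pmepa1, a target and feedback inhibitor of TGF-beta signaling, had 0 UMIs in both blood libraries and stood at 367 and 474 CPM in tumor, at least 145-fold and at least 116.5-fold higher, with a UMI in 61.8% and 68.1% of NK cells. Crem, a factor induced by cyclic AMP, stood at 16.0, 14.9, 257 and 390.0 CPM (3.93 and 4.58). Ctla2a, a cathepsin inhibitor gene, stood at 283, 168, 1612 and 2011 CPM (2.51 and 3.57) against at most 30.1 CPM in the other barcodes, and Bcl2l11, which encodes the death factor Bim, at 74.9, 69.1, 379.5 and 482 CPM (2.33 and 2.77). The other tumor barcodes held Pmepa1 at 333 and 277 CPM and Crem at 110.5 and 155 CPM, against at most 5.27 CPM in blood for either gene. Tgfb1 itself, from the cytokine list, stood at 129, 152, 534 and 806 CPM in NK cells (2.04 and 2.40).

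Most glycolysis and hypoxia genes were higher in tumor, in NK cells and in the other barcodes. Of 16 measured in both comparisons, 11 were higher and 1 lower in control (median 1.62) and 12 higher and 1 lower in IR (1.43), and the other barcodes had medians of 2.12 and 2.24 for the same genes. Vegfa stood at 15.1, 14.9, 284 and 417 CPM (4.15 and 4.68), in 55.3% and 54.3% of tumor NK cells. Mif stood at 123, 115, 680.4 and 551 CPM (2.46 and 2.24), Pgk1, a glycolytic kinase, at 94.3, 115, 424 and 411 CPM (2.16 and 1.82), and Gapdh at 459, 608, 1374 and 1374 CPM (1.58 and 1.17). Slc2a3, a glucose transporter, was the lower gene, at 90.9, 71.8, 17.8 and 16.1 CPM (-2.29 and -2.06). Hilpda, a lipid droplet gene induced by hypoxia, stood at 147 and 260.0 CPM in tumor NK cells against 346 and 729 in the other tumor barcodes, and what free RNA added to it was not tested.

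Further genes given by the naming rule were lower in both comparisons. Bin2, a BAR-domain protein of leukocytes, stood at 329, 298, 46.1 and 64.2 CPM, Ifitm10 at 166, 126, 21.0 and 27.3, and Tspan32, a tetraspanin, at 135, 149, 23.1 and 17.7. The rule also gave genes that rest on few cells. Prtn3, a neutrophil granule protease, stood at 197 and 408 CPM in blood and 0 in tumor, with 97% or more of its UMIs in 1 cell of each blood library. Bgn, a matrix proteoglycan, had 180 UMIs in tumor control and 0 elsewhere, and only 4.02% of NK cells there held it.

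The remaining lists were mixed. Of 19 immediate-early genes measured in control 4 were higher and 4 lower (median -0.05), and of 18 in IR 7 were higher and 0 lower (0.48). Nr4a3, an orphan receptor induced by stimulation, rose from 29.5 to 92.3 CPM (1.62) and from 9.49 to 143 (3.72). Cytokine and chemokine genes numbered 3 higher and 3 lower of 10 in control and 4 higher and 1 lower of 11 in IR. Ccl5, a chemokine stored by NK cells, stood at 15323, 16010.0, 8254 and 8644 CPM, with -0.89 in both. The median NK cell held it at 15829, 18452, 12936 and 9552 CPM of its own UMIs, a smaller difference in control. Of the translation and ribosome biogenesis genes 6 of 12 were higher and 0 lower in control, and 4 and 1 without mixed droplets. In IR 3 of 10 were higher and 0 lower. The medians were 0.99 and 0.47, against 2.25 and 0.95 in the other barcodes. Chemokine receptors had 0 higher and 3 lower of 8 in control and 2 and 3 of 7 in IR, and CD27-high immature genes 1 and 2 of 10 and 2 and 2 of 8. Of 7 heat shock genes, which tissue digestion can raise, 0 were higher in either comparison, and 1 and 2 were lower.

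IR against control asked what tumor-localized radiation was followed by in NK cells 3 days later, within each tissue. Fewer genes passed the limit in blood than in tumor. Of 7777 genes 147 were higher and 195 lower, 1.89% and 2.51%, and in tumor 441 of 6768 were higher and 455 lower, 6.52% and 6.72%. These calls compare 2 libraries in each tissue, and the medians over all genes were 0.00 and 0.04.

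In tumor the interferon response genes were higher after IR. Isg15, a ubiquitin-like modifier, stood at 34.5, 92.1, 87.0 and 827 CPM, and IR over control was 3.23 in tumor on the log2 scale. Rsad2, the antiviral enzyme viperin, stood at 33.7, 40.6, 9.44 and 359.5 CPM (5.08), with 9 UMIs of a single cell in tumor control and 224 in tumor IR, 42% of them in 1 cell. Irf7, the factor that amplifies type I interferon, stood at 47.1, 73.2, 59.8 and 265 CPM (2.12), Bst2, which encodes tetherin, at 69.0, 85.4, 137 and 416 CPM (1.59), and Zbp1, a sensor of Z-form nucleic acids, at 60.6, 86.7, 50.3 and 239 CPM (2.22). In each case tumor IR was the highest library and the other 3 lay well below it.

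Over the list of 30 genes, 25 of 27 measured in tumor were higher after IR and 0 lower, at a median of 2.48, whereas the median over all genes was 0.04. The 2 inside the limit were Ly6a (377 and 445 CPM in tumor, 0.24) and Irf9 (28.3 and 49.8 CPM, 0.79). Without mixed droplets 25 of 27 were again higher, at a median of 1.98, and thinning to 1000 UMIs per cell gave 1.59. Both labels showed it, with all 27 above 0 in each and medians of 2.42 in cells labelled WT and 2.47 in cells labelled Ythdf2-cKO. In blood 6 of 26 were higher and 0 lower, at a median of 0.61, and without mixed droplets 2 were higher and 2 lower, at 0.25. Between tissues the list ran 3 higher and 7 lower of 24 in control (-0.37) and 20 higher and 0 lower of 30 in IR (1.33).

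Several of these genes carry the same 10-letter motif before their start. The motif GAAANNGAAA, the core of an interferon-stimulated response element, was searched on both strands (its reverse is TTTCNNTTTC) in RefSeq promoters of GRCm38.p6 from 250 bases before to 50 bases after the start. It was found for 13 of the 23 list genes that matched the promoter table (56.5%), 9 of 15 matched interferon-gamma response genes (60.0%), 1 of 15 matched glycolysis genes (6.67%) and 1079 of all 27025 genes in the table (3.99%). Windows of 30 bases are shown for 5 genes that rose in tumor NK cells after IR, with the motif in capitals, on the strand of the gene, to let the copies be compared.
Isg15: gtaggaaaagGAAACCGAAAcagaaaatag
Bst2: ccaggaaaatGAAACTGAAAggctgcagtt
Rsad2: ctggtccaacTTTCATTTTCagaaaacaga
Ifit1: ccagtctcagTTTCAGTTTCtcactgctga
Ifit3: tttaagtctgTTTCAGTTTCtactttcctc

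The windows lie at chr4:156200871-156200900 (Isg15, minus strand), chr8:71537577-71537606 (Bst2, minus), chr12:26456553-26456582 (Rsad2, minus), chr19:34640794-34640823 (Ifit1, plus) and chr19:34583397-34583426 (Ifit3, plus), with the first motif base 72, 124, 120, 85 and 122 bases before the start. Isg15 and Bst2 hold the motif on their own strand and the other 3 on the opposite strand. Ifit3 and its near copy Ifit3b hold the same 30 letters, and reads of the 2 genes can be split. Among the genes shown, overlapping copies of the motif were found in Isg15 and Bst2, and Ifit1 and Ifit3 held a further copy that did not overlap. Each window marks a single copy. Oas1a, not shown, also held overlapping copies. A match of letters is a description, not a binding site or a cause.

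A part of the tumor NK cells carried the interferon genes. After thinning to 1000 UMIs, 8 of 296 blood control, 7 of 163 blood IR, 6 of 194 tumor control and 48 of 182 tumor IR NK cells held 5 or more UMIs over the 30 genes. In percent these were 2.70, 4.29, 3.09 and 26.4, the last with a 95% interval of 20.1 to 33.4. Without mixed droplets the shares were 0.810%, 0.690%, 1.16% and 19.7% (31 of 157 in tumor IR, 13.8 to 26.8).

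**Figure D4:**
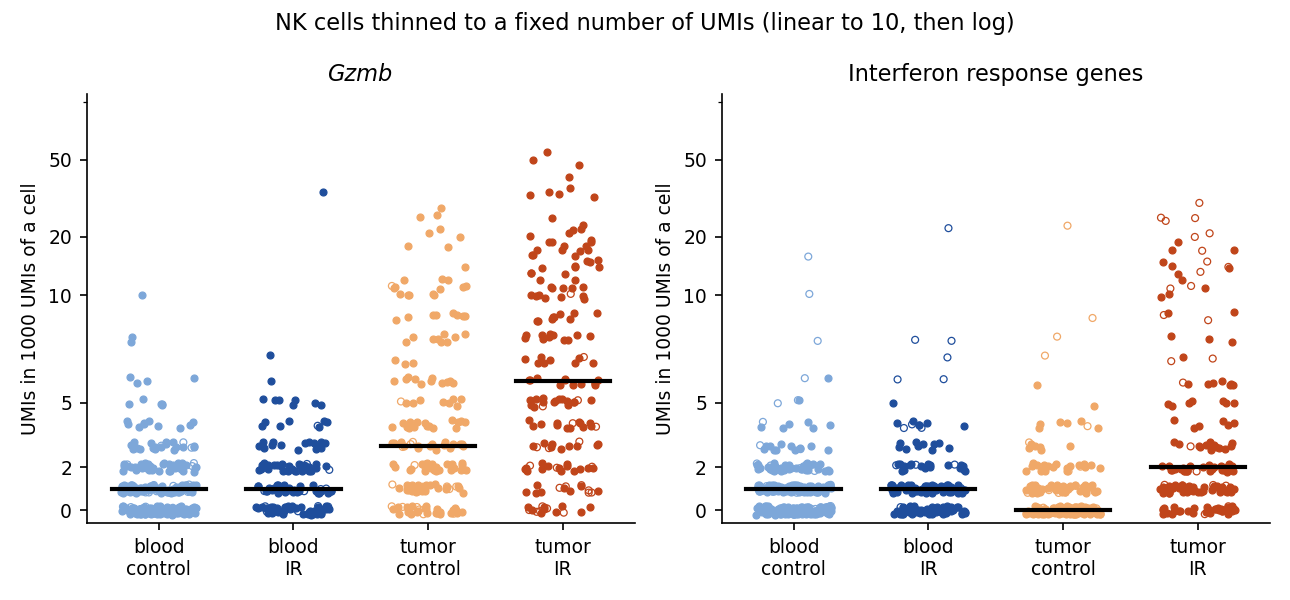
Each point is 1 NK cell thinned to 1000 UMIs, placed by its UMIs of Gzmb (left) or summed over the 30 interferon response genes (right), with a small random shift to keep points apart. Filled points are cells without signs of a mixed droplet, open points the others, and black lines are medians over both. The Gzmb medians were 1, 1, 3 and 6, and the cells with 5 or more interferon UMIs numbered 8, 7, 6 and 48.

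The other barcodes of the same libraries moved with the NK cells. For the 27 genes measured in tumor their median ratio of IR over control was 2.45 against 2.48 in NK cells, with 26 of 27 higher. NK cells had the lower level, with summed interferon response CPM of 1256, 2008, 1283 and 5445, which was 30.8%, 34.5%, 37.8% and 40.7% of the level in the other barcodes. Without mixed droplets the sums were 922, 1037, 699 and 2441 CPM, or 22.6%, 17.8%, 20.6% and 18.2% of that level. In the same droplets the 7 monocyte and macrophage markers that the filter did not use stood at 1.07%, 0.84%, 1.44% and 1.48% of their level in the other barcodes. Rsad2 had a larger ratio in NK cells than in the other barcodes (5.08 against 3.25), and Ly6a a smaller one (0.24 against 0.97). These are values side by side, and the part that RNA from other cells had in the NK values was not tested.

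**Figure D5:**
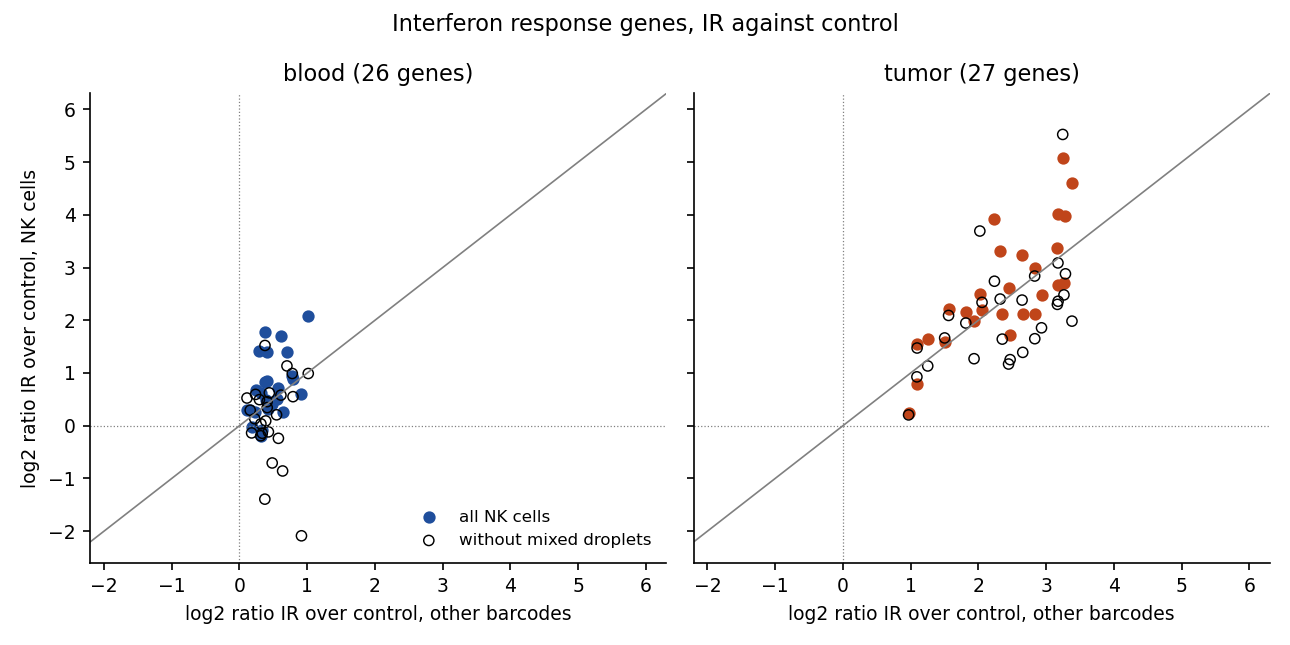
Each filled point is 1 interferon response gene, with its log2 ratio of IR over control in the other barcodes on the horizontal axis and in NK cells on the vertical axis, for blood (26 genes) and tumor (27 genes). Open circles give NK cells without mixed droplets, and the diagonal is equality. In tumor all points lay above 0 on both axes, with medians of 2.48 (all NK cells) and 2.45 (other barcodes).

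Interferon-gamma and its targets also stood higher in tumor after IR. Ifng, the cytokine gene (chromosome 10, 118441046 to 118445892, mm10), stood at 101, 117, 82.8 and 392 CPM, and IR over control was 2.22 in tumor (95% interval 1.87 to 2.63). One cell held 134 of its 244 UMIs in tumor IR, 54.9%, and 23.4% of cells held any, against 21.1% in tumor control. Of 18 measured interferon-gamma response genes 6 were higher and 0 lower (median 0.71), and without mixed droplets 3 were higher (0.37). Gbp4, a guanylate-binding GTPase, rose from 31.5 to 117 CPM (1.86) and Socs1, the feedback inhibitor of cytokine receptors, from 77.6 to 162 (1.05). Under 12 processing settings Gbp4 passed the limit in 12 and Socs1 in 7. In the other barcodes Gbp4 rose from 45.2 to 102 CPM. In blood 1 of 17 was higher.

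Granzyme B was higher again within tumor, from 3049.7 CPM in control to 7208 in IR (1.24, 95% interval 1.17 to 1.31, and 1.19 without mixed droplets). With every cell weighted equally the ratio was 0.96, just inside the limit. In blood it was 0.37. The Gzmc to Gzmg cluster went the other way, from 7340 UMIs in control to 830 in IR, or 7695 and 1332 CPM, and Gzmc alone fell by 2.17 on the log2 scale. Of the cytotoxic list 3 genes were higher and 4 lower of 17 in tumor (median -0.07), and 0 of 12 in blood passed the limit. Without mixed droplets 1 was higher and 4 lower in tumor.

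Chemokine genes differed by droplet. Ccl4 stood at 1111, 669, 351 and 1236 CPM, and was higher after IR in tumor by 1.81, and it stayed past the limit without mixed droplets. The share of tumor NK cells with a UMI of Ccl4 was similar, 42.2% in control and 45.2% in IR, and the median cell had 0 in both. Its highest cell stood at 16919 CPM of its own UMIs in control and 65070 in IR. Ccl3, its neighbour, stood at 274, 251, 55.6 and 194 CPM, higher by 1.78 over all NK cells and by 0.33 without mixed droplets, with 37% of its UMIs in 1 cell of tumor IR. The other tumor barcodes held Ccl4 at 905 and 1683 CPM and Ccl3 at 326 and 719 CPM. Of 10 cytokine and chemokine genes 4 were higher and 0 lower in tumor (median 0.65), against 2 and 1 without mixed droplets (-0.11).

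Proliferation genes were lower after IR in tumor, and few cells carried them. Of 16 genes 15 were lower and 0 higher, at a median of -4.14, or -3.15 with the 7 genes absent from tumor IR set at their limit. Mki67 had 8, 15, 77 and 0 UMIs and Top2a, a topoisomerase of dividing cells, 28, 38, 93 and 7. Only 8 of 199 NK cells in tumor control held 5 or more UMIs of 11 proliferation genes, with 318 of their 814 UMIs in 1 cell, and 1 of 188 did in tumor IR. Without mixed droplets these were 6 of 178 and 1 of 162. Thinned to 1000 UMIs per cell the median was -0.67. Against blood the control tumor had 14 of 16 higher and 0 lower (median 2.11), which thinning took to -0.01. The other barcodes moved in the same directions. For IR over control in tumor 12 of the 16 genes were lower there and 0 higher (median -1.495). For tumor over blood in control 15 were higher there and 0 lower (4.77).

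In blood the immediate-early genes, which signaling induces within minutes, were lower after IR. Of 19 measured 5 were lower and 0 higher, at a median of -0.73. Egr1 fell from 256 to 82.7 CPM (-1.62), Nr4a1 from 95.9 to 42.0 (-1.17), Nr4a3 from 29.5 to 9.49 (-1.53), Dusp1 from 714 to 331 (-1.11) and Ier3 from 32.0 to 12.2 (-1.32). Without mixed droplets 4 were lower, Ier3 was at 0.46 and Dusp1 at -0.70. The other barcodes had a median of -0.51, and Egr1 there fell from 1062 to 445 CPM. In tumor 2 of 18 were higher and 0 lower (0.25). Xcl1 was the 1 gene that the naming rule gave for blood, at 292 and 85.4 CPM (-1.76), and without the cell that held 59% of its UMIs in blood control the ratio was -0.48, inside the limit. Over the 12 settings its ratio ran from -3.59 to -0.13.

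The other lists gave these counts for IR against control. The 12 maturation genes measured in blood had 0 called and a median of 0.12, and of 11 in tumor 3 were higher and 1 lower (0.56), which became 1 and 1 without mixed droplets (-0.27). NK receptors had 0 higher and 1 lower of 23 in blood (0.01) and 1 and 1 of 22 in tumor (0.25). Glycolysis genes had 0 higher and 1 lower of 15 in blood and 0 called of 16 in tumor. Residency genes had 1 higher and 4 lower of 12 in tumor (-0.40), and without mixed droplets 0 and 6 (-0.84). CD27-high immature genes had 1 higher and 2 lower of 9 in tumor (-0.09), and without mixed droplets 0 and 4 (-0.87). Of the p53 targets, which DNA damage can induce, 0 of 12 were called in blood and 2 of 11 were higher and 1 lower in tumor. Cdkn1a, the best known of them, stood at 27.8, 27.1, 208 and 488 CPM, with 1.23 for IR over control in tumor and 0.16 without mixed droplets.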

How the data were processed

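The 4 libraries hold 3′ transcript and hashtag counts of single cells. Per the file headers and the submitters' notes, the deposited UMI counts per gene and cell came from Cell Ranger and mm10. The headers name version 4 and the notes Cell Ranger 6.0.1 and Seurat 4.0.6. The study's methods give GENCODE vM23 for the alignment. Barcodes with at least 500 gene UMIs, 200 genes, 20 hashtag UMIs and at most 25% mitochondrial UMIs were kept. Genotype labels came from HTODemux (Seurat 5.3.0 in R 4.3.3, quantile 0.99), and hashtag doublets stayed in unless said. No doublet caller was run beside it. Counts were summed over the NK cells of a library and compared as ratios of CPM with 1 pseudo-UMI, in Python 3.11.15. TMM factors came from edgeR 4.0.16.

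Intervals are 95%: exact Poisson for levels, exact conditional binomial for ratios, Clopper-Pearson for shares (3 counts as the limit for a count of 0) and Newcombe for their differences. No p-value was computed, since each tissue and treatment had 1 library. The ratio code was tested on simulated data. The cells, the 30 gene lists and the comparisons were chosen with earlier results of these data known. Genes outside the lists were named when they were among the 12 with the largest ratios in a direction, held at least 100 UMIs over the 2 libraries, had an interval without 0, went the same way in both labels and were at least as high in NK cells as in the other barcodes of the higher library. List genes were eligible from 100 UMIs over the 4 libraries, and those with fewer (Itga1, Ikzf2, Ctla4, Havcr2, Pdcd1, Lag3, Tigit, Cxcr6, Itgae, Il23r and Il22) were named after their values were seen. Gene positions came from GENCODE vM21 by gene ID (380 of 380 found), and promoters from RefSeq (23 of 30 interferon response genes found).

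Alternatives numbered 12 (scaling, minimum counts, thresholds of the cell rule, depth, labels and shared barcodes) plus 4 added after the data were seen: leaving out mixed droplets, weighting cells equally, summing each tumor cell over both tumor matrices and leaving out 1 cell for Xcl1.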

Additional observations from a re-analysis of the deposited data

Results flagged for a closer look

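Mgat5, which encodes a glycosyltransferase that branches N-glycans, had opposite ratios of IR over control in the 2 tissues. It stood at 42.1 CPM in blood control and 14.9 in blood IR, a log2 ratio of -1.43, and at 23.1 CPM in tumor control and 62.6 in tumor IR, a log2 ratio of 1.39. The UMIs behind these levels were 50, 11, 22 and 39, with 1 library each. The difference between the tissues was not tested.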

How the results depend on the processing

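With 1 library per tissue and treatment the limits are the same for all results: intervals hold counting error only, and a pooled library cannot show the spread between mice. Over the alternatives, values of the shares and gene counts stayed close 75 times, moved 24 times and reversed once, and list medians stayed close 300 times, moved 115 times and reversed once.

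The NK share of tumor minus blood in IR was 0.61 percentage points, 0.18 without hashtag doublets and negatives, 1.09 in cells labelled Ythdf2-cKO and -0.57 in cells labelled WT (-1.20 to 0.08), where it reversed. IR minus control was -2.03 in blood and -2.97 in tumor for the label WT, and -0.39 and -0.38 for the label Ythdf2-cKO. Genes past the limit numbered 2227 and 1431 for tumor against blood (control, IR) and 342 and 896 for IR against control (blood, tumor). With a minimum of 1 UMI they were 5220, 3993, 2186 and 3372, with 50 UMIs 1296, 716, 105 and 375, and with cells thinned to 1000 UMIs 693, 497, 220 and 141, fewer genes being measured. The label Ythdf2-cKO alone gave 771 and 769 between tissues and 371 for IR in tumor. Without mixed droplets IR against control gave 221 in blood and 351 in tumor, and 493 in tumor with at most 1 myeloid UMI. The proliferation median of tumor over blood in control went from 2.11 to -0.014 with thinning. TMM moved the split between tissues from 646 higher and 1581 lower to 1021 and 978 in control. The causes of these moves were not tested. No paired analysis was possible because each group has 1 sample.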

Other observations

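Single genes not described above also differed between the libraries. Odc1, the first enzyme of polyamine synthesis and a gene of the translation list, stood at 33.7, 32.5, 292 and 247 CPM in NK cells of blood control, blood IR, tumor control and tumor IR, and the other tumor barcodes held it at 314 and 256 CPM. Nfkbia, the inhibitor that NF-kB induces against itself and a gene of the immediate-early list, stood at 212, 163, 844 and 878 CPM, with a UMI in 32.7%, 29.1%, 84.9% and 71.3% of NK cells, and the other barcodes held 723, 640.5, 2135 and 1871 CPM. Trbc1, a T cell receptor constant gene, had a UMI in 53.5%, 52.1%, 62.8% and 66.0% of NK cells, and it stood at 235, 186, 335 and 446 CPM against at most 8.38 CPM in the other barcodes.

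Among genes that differed with IR in tumor, Sp100, a nuclear body protein gene, went from 108 to 301.8 CPM and Gadd45g, a stress-induced gene, from 49.3 to 125. Ifitm1, an interferon-inducible membrane protein gene, went down, from 376 to 20.9 CPM in tumor and from 342 to 85.4 CPM in blood, with 37% of its UMIs in 1 cell of tumor control. Odc1, Nfkbia and Trbc1 were chosen after their values were seen.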
